A study of Mus musculus with 2 samples.

Results

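The genes described here are 10 genes that mark lipid-associated macrophages, the macrophages that gather in fat-laden tissue: *Trem2*, *Tyrobp*, *Gpnmb*, *Atp6v0d2*, *Lgals3*, *Cd63*, *Cd9*, *Spp1*, *Lpl* and *Fabp5*. They were taken by symbol from the gene table of the series, in which each has 1 row, so that they are 10 of the 32285 genes counted. The question was which of them were restricted to macrophages in the steatohepatitic liver and which were shared with cholangiocytes or with hepatic stellate cells (HSCs), and how they went together within macrophage nuclei.

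Nuclei were isolated from snap-frozen livers of male C57BL6/J mice, sorted, and sequenced by 3′ single-nucleus RNA-seq (snRNA-seq). All mice had received, from an age of 10 to 12 weeks and for 5 months, a diet that causes metabolic dysfunction-associated steatohepatitis (MASH), with 40% of its energy from fat, 20% from fructose and 2% cholesterol. The groups were Flox (genotype *Themis* flox/flox; the word WT stands in its title) and HKO (genotype *Themis* Alb-Cre), whose Cre comes from the promoter of albumin, a hepatocyte product. Each group was 1 library from the pooled liver tissue of its mice, so that no value has a replicate, no test between the groups was possible, and genotype cannot be told apart from any other difference between the libraries.

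TREM2 is a lipid-sensing receptor of myeloid cells that signals through the adaptor TYROBP (DAP12), and macrophages that engulf lipid or dying cells switch on a set of genes with it. The set holds products of the lysosome and of membrane vesicles (GPNMB, ATP6V0D2, CD63, CD9), secreted proteins (SPP1, or osteopontin, and galectin-3) and proteins that release and carry fatty acids (LPL, FABP5). In MASH such cells surround fat-laden hepatocytes and appear beside the resident Kupffer cells. Several of these genes are also active elsewhere in the liver: bile duct cells, for instance, are a known source of osteopontin.

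Each nucleus was given a type from the UMIs of marker genes, none of which is among the 10. The library labelled Flox gave 540 macrophage, 69 cholangiocyte, 715 HSC, 624 endothelial, 5871 hepatocyte, 87 T or NK cell and 50 B cell nuclei, and the library labelled HKO gave 1305, 344, 1071, 1191, 4503, 147 and 59. The label HKO was not borne out by the targeted gene: *Themis* was at 163 CPM (UMIs per 1000000 UMIs of the summed nuclei) in Flox hepatocytes and at 246 CPM in HKO hepatocytes, 1.51-fold higher (1.46 to 1.56), and counts per gene do not show whether a deleted exon was present. Groups are therefore named below as the labels name them. The deposited matrices held 58171337 UMIs in 9363 barcodes (Flox) and 40475938 in 10748 (HKO), with median depths of macrophage nuclei of 2068.5 and 1380 UMIs, and shared 27 barcodes. Macrophage markers that took no part in the typing (6 genes, among them the C1q genes and *Lyz2*) summed to 5054 and 3551 CPM in macrophages, and to 46.4 and 49.3 CPM in HSCs. The cut for macrophages left 13 Flox and 148 HKO nuclei untyped by 1 marker UMI. All intervals are 95% intervals, exact Poisson for a CPM, exact conditional binomial for a ratio and Clopper-Pearson for a share, and cover counting error only. Where a pair of values is given, Flox stands first.

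A gene was called restricted to macrophages where its CPM there was at least 5 times that of each of the other 6 types in both libraries, and shared with a type where that type reached at least 1/5 of the macrophage CPM in both. By this rule 4 of the 10 genes were restricted: *Trem2*, *Gpnmb*, *Lgals3* and *Lpl*. Of all 7700 genes with at least 50 UMIs in macrophages, 2.57% met the same rule. Types with fewer than 50 nuclei in a library, among them dendritic cells and neutrophils, were not compared. Among the 6 that were, *Tyrobp* and *Atp6v0d2* missed the rule only through 3 UMIs each, in HKO B cells and in HKO T or NK cells. The totals there are so small that 3 UMIs come to 63.2 and 24.1 CPM. With those types left out of the comparison, a choice made after the values were seen, 6 genes were restricted, where 5.82% of all genes tested were. For *Atp6v0d2* the Flox cholangiocytes could not have shown a 5-fold gap, since 3 UMIs there come to 22.6 CPM and its macrophage level was 19.3 CPM. Restricted genes met this limit too, where a small type held no UMI. Against 3 UMIs, *Trem2* in Flox macrophages was 3.23-fold over cholangiocytes, 2.64-fold over T or NK cells and 1.13-fold over B cells. *Lgals3* was 4.10-fold and 1.76-fold over Flox T or NK and B cells, and 4.87-fold over HKO T or NK cells. *Gpnmb* was 3.52-fold over Flox B cells. The other 4, *Spp1*, *Cd9*, *Cd63* and *Fabp5*, were shared with cholangiocytes, and *Cd63* and *Spp1* also with HSCs. By the same rule *Cd63* and *Spp1* were shared with hepatocytes. From few UMIs, *Cd63*, *Cd9* and *Spp1* were shared with B cells, and *Cd9* and *Spp1* with T or NK cells. Sharing was the usual state of a gene: 80% of all genes tested were shared with cholangiocytes by this rule and 85.1% with HSCs.

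**Figure D1:**
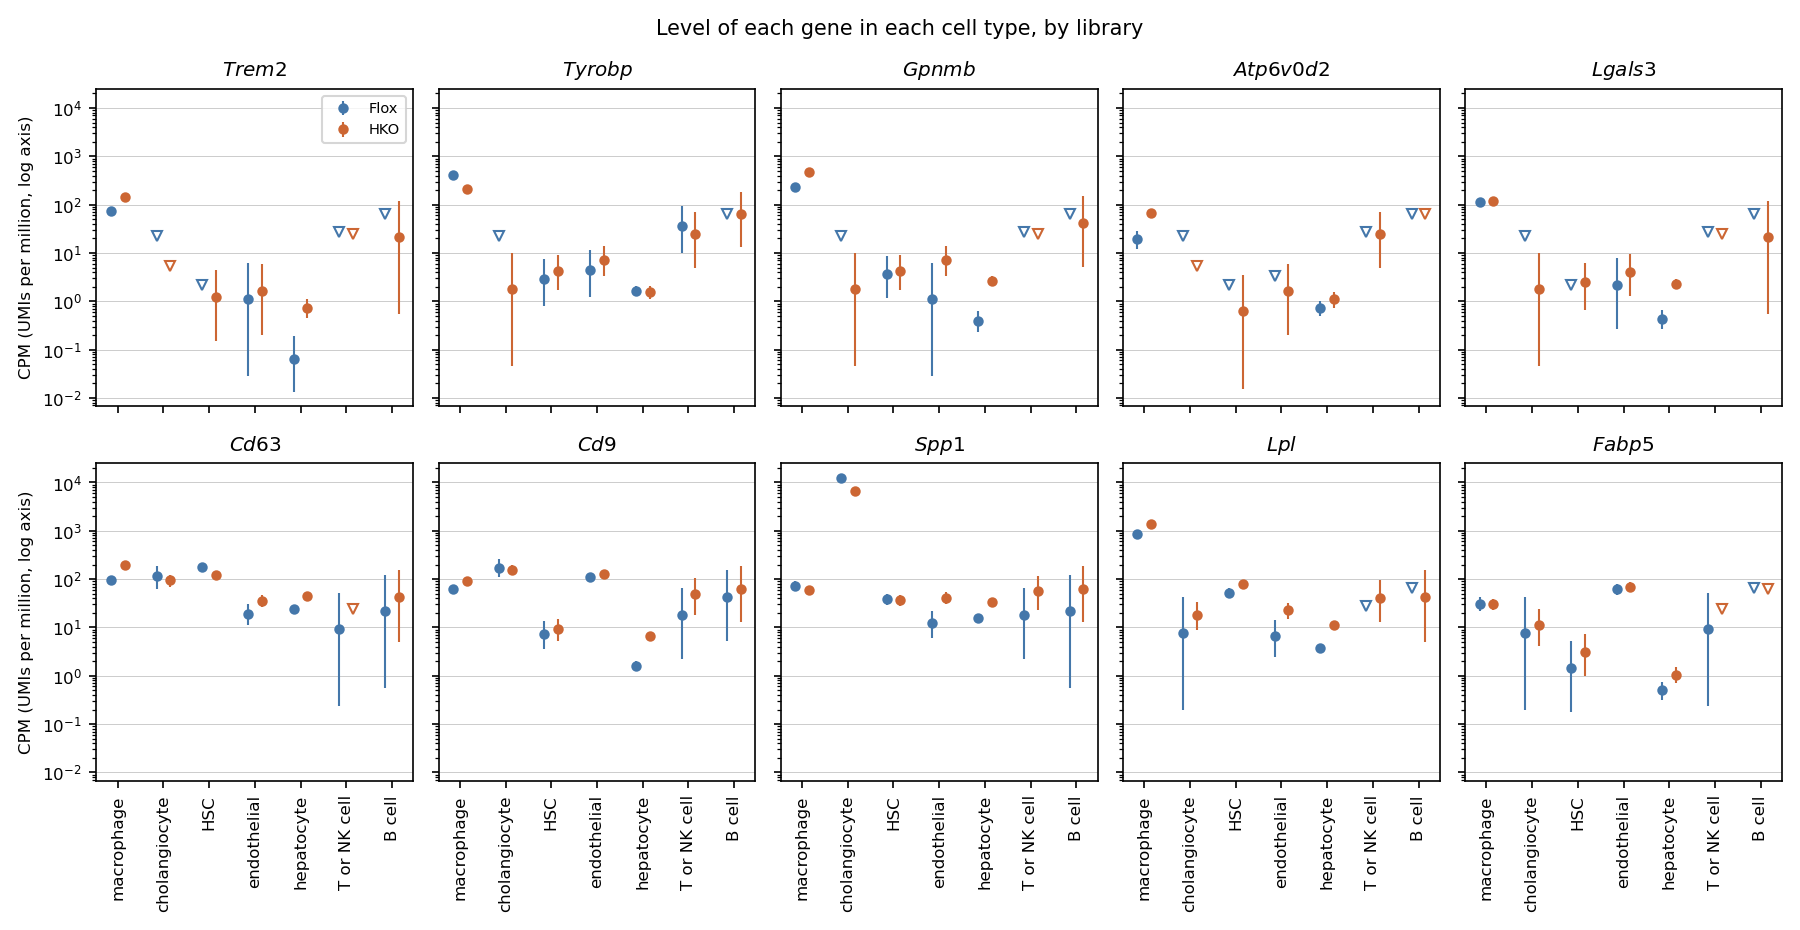
CPM of each gene (log axis) in 7 cell types, Flox in blue and HKO in orange, with 95% Poisson intervals; open triangles mark a type with no UMI, drawn at the level that 3 UMIs would give. *Trem2*, *Gpnmb*, *Lgals3* and *Lpl* stand highest in macrophages in both libraries, *Spp1* in cholangiocytes at 12444 and 6758 CPM, and *Fabp5* in endothelial nuclei at 61.0 and 68.8 CPM.

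*Trem2* (ENSMUSG00000023992; GRCm38 chromosome 17, 48346401 to 48354147, plus strand) had 87 UMIs in Flox macrophages, or 73.1 CPM (58.5 to 90.2), and 276 in HKO macrophages, or 142 CPM (125 to 159). In cholangiocytes there was no *Trem2* UMI in either library. Against the level of 3 UMIs there, macrophages were 3.23-fold higher in Flox and 25.7-fold higher in HKO. The lower ends of the intervals of the ratio were 2.57 and 20.8. HSCs held 0 and 2 UMIs, endothelial nuclei 1 and 2, and T or NK cells none. The only other UMI in the typed lymphocytes was a single one in HKO B cells, and it alone set the lowest HKO ratio, 6.72. Macrophages, 6.24% and 13.3% of all nuclei kept, held 85.3% and 72.3% of the *Trem2* UMIs of their libraries. Of the 382 UMIs in HKO, 69 (18.1%) lay in untyped nuclei and 20 in hepatocytes, or 0.731 CPM.

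*Tyrobp* (ENSMUSG00000030579; chromosome 7, 30413760 to 30417585, plus strand), whose product pairs with several receptors of myeloid and NK cells besides TREM2, was at 402 CPM (366 to 439) in Flox macrophages and 213 CPM (193 to 235) in HKO macrophages. After every nucleus had been thinned to 1000 UMIs, to take out depth, *Tyrobp* was found in 162 of 518 Flox macrophage nuclei (31.3%) and 193 of 1067 HKO ones (18.1%), where *Trem2* was found in 28 (5.41%) and 129 (12.1%). Unthinned shares were 50.2% and 24.1% for *Tyrobp* and 10.6% and 17.5% for *Trem2*. In cholangiocytes, HSCs and endothelial nuclei *Tyrobp* stayed at or under 7.29 CPM in both libraries. T or NK cells held 4 and 3 UMIs, or 36.9 and 24.1 CPM. The types too small to compare, which include dendritic cells and neutrophils, held 26 and 16 UMIs. That was 3.59% and 2.59% of all *Tyrobp* UMIs in 0.681% and 0.582% of nuclei, so its absence from other myeloid cells was not shown.

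Of the wider pathway, the list of 10 TREM2 signalling genes gave 9 with enough UMIs in macrophages. None of the 9 was 2-fold higher in HKO (1.13% of all genes) or 2-fold lower (2.53%), a count near those shares. Of the 9, 2 were restricted to macrophages (2.57% of all genes). *Apoe*, whose product is a lipid-carrying ligand of TREM2, was at 3408 and 3422 CPM in macrophages, and *Syk*, the kinase that TYROBP recruits, at 358 and 351 CPM. *Lyn* was at 576 and 349 CPM. *Treml4*, the one other gene of the TREM family with enough UMIs, was also restricted to macrophages, at 110 and 55.4 CPM.

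*Gpnmb* (ENSMUSG00000029816; chromosome 6, 49036546 to 49070929, plus strand), a transmembrane glycoprotein of lysosome-rich macrophages, was restricted to macrophages in both libraries. They held 271 UMIs in Flox, or 228 CPM (201 to 256), and 945 in HKO, or 485 CPM (454 to 517). Cholangiocytes held 0 UMIs and 1, HSCs 5 and 7, endothelial nuclei 1 and 9. At 3.68 and 4.32 CPM in HSCs, *Gpnmb* lay 61.9-fold and 112-fold under its macrophage level, and the check markers of macrophages were there at a median of 0.955% and 1.27% of their macrophage level, which would come to 2.17 and 6.17 CPM of *Gpnmb*. In Flox, 2 deep macrophage nuclei of 9942 and 7927 UMIs held 49 and 62 of the 271 UMIs, and without the second of them the level was 177 CPM.

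*Atp6v0d2* (ENSMUSG00000028238; chromosome 4, 19876841 to 19922605, minus strand) encodes the d2 isoform of a subunit of the proton pump that acidifies lysosomes, an isoform known from osteoclasts and macrophages. It had 23 UMIs in Flox macrophages, or 19.3 CPM (12.2 to 29.0), and 128 UMIs in HKO ones, or 65.6 CPM (54.8 to 78.1). No UMI was found in cholangiocytes of either library, and HSCs held 0 and 1. Hepatocytes held 33 and 30 UMIs, which is only 0.717 and 1.10 CPM but, owing to the number of hepatocyte nuclei, 55% and 14.7% of all *Atp6v0d2* UMIs. The hepatocyte values were 20.4 and 3.56 times what leakage at the rate of the macrophage check markers would give.

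Of 17 further V-ATPase genes with enough UMIs none was restricted to macrophages (2.57% of all genes), or 2, *Tcirg1* and *Atp6v1b2*, without T or NK and B cells (5.82%). Of the 17, 10 were shared with cholangiocytes (80% of all genes) and 14 with HSCs (85.1%). None was 2-fold higher in HKO (1.13% of all genes) or 2-fold lower (2.53%). *Tcirg1* was at 318 and 501 CPM in macrophages and *Atp6v0b* at 1356 and 1078 CPM. None of 15 lysosome genes was restricted, 2-fold higher or 2-fold lower either, against the same shares of all genes. *Ctsd*, the aspartic protease cathepsin D, was at 562 and 609 CPM. Among the MiT/TFE factors, which drive lysosome genes, *Mitf* was at 129 and 145 CPM, *Tfe3* at 204 and 189 CPM and *Tfec* at 173 and 162 CPM.

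*Lgals3* (ENSMUSG00000050335; chromosome 14, 47367751 to 47386160, plus strand), which encodes the galactoside-binding lectin galectin-3, had 135 UMIs, or 113 CPM (95.1 to 134), and 229 UMIs, or 117 CPM (103 to 134). It had 0 UMIs and 1 in cholangiocytes, 0 and 4 in HSCs and 2 and 5 in endothelial nuclei. Hepatocytes held 20 and 63, or 0.434 and 2.30 CPM, 2.11 and 4.18 times what leakage from macrophages would give, and untyped nuclei 6 and 61. Macrophages held 71.1% and 59.2% of all *Lgals3* UMIs. The call as restricted was close in HKO, at 5.58-fold over B cells, where it rested on 1 UMI. *Lgals3* dropped out of the restricted genes when types were told from whole profiles and when CPM was averaged over nuclei. None of the 3 other galectins with enough UMIs was restricted, where 2.57% of all genes were. *Lgals8* was at 173 and 204 CPM in macrophages and at 114 and 134 CPM in HSCs.

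The tetraspanins *Cd63* and *Cd9*, membrane proteins of late endosomes, exosomes and the cell surface, were not restricted to macrophages in these livers. *Cd63* (ENSMUSG00000025351; chromosome 10, 128900989 to 128912822, plus strand) was at 95.8 CPM (79.0 to 115) and 197 CPM (178 to 218) in macrophages, 180 CPM (158 to 204) and 119 CPM (103 to 137) in HSCs and 113 CPM (63.4 to 187) and 93.5 CPM (69.6 to 123) in cholangiocytes. The order differed between the libraries: HSCs stood above macrophages in Flox, by 1.87-fold (1.49 to 2.36), and below them in HKO, at 0.604 of their level (0.506 to 0.720). In cholangiocytes the ratio to macrophages was 1.18 (0.640 to 2.03) in Flox, within counting error of 1, and 0.475 (0.347 to 0.637) in HKO. Hepatocytes were at 24.0 and 44.8 CPM, and with their number they held 68.2% and 58.5% of all *Cd63* UMIs. In Flox, 1 macrophage nucleus of 9942 UMIs held 26 of the 114 *Cd63* UMIs of macrophages, and without it the level was 74.6 CPM. The same nucleus held the most *Tyrobp*, *Lgals3* and *Fabp5* UMIs of any Flox macrophage nucleus.

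*Cd9* (ENSMUSG00000030342; chromosome 6, 125460266 to 125494791, minus strand) had its highest level in cholangiocytes, 174 CPM (110 to 260) and 156 CPM (125 to 193), against 61.3 CPM (48.1 to 77.1) and 92.3 CPM (79.3 to 107) in macrophages. The ratio of cholangiocytes to macrophages was 2.83 (1.69 to 4.58) and 1.69 (1.29 to 2.20). Endothelial nuclei came between them, at 109 and 125 CPM. Within the endothelium *Cd9* was uneven: nuclei with a *Vwf* UMI and none of 4 sinusoidal markers were at 450 CPM (271 to 703; 33 nuclei) and 286 CPM (183 to 425; 84 nuclei), while sinusoidal nuclei without *Vwf* were at 67.3 CPM (50.4 to 88.0; 538 nuclei) and 83.9 CPM (66.9 to 104; 953 nuclei). HSCs, at 7.36 and 9.25 CPM, were 8.33-fold and 9.98-fold under macrophages. *Cd9* was therefore shared with bile duct cells, as *Cd63* was, and from few UMIs with lymphocytes. Unlike *Cd63*, it was shared with vessel cells and not with stellate cells. *Cd63* in endothelial nuclei lay just under the limit of 1/5, at 19.7% and 18.1% of its macrophage level.

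*Spp1* (ENSMUSG00000029304; chromosome 5, 104435118 to 104441050, plus strand), the gene of osteopontin, was a cholangiocyte gene here. Cholangiocytes held 1649 UMIs in Flox, or 12444 CPM (11851 to 13059), and 3685 in HKO, or 6758 CPM (6542 to 6980). Every one of the 69 Flox cholangiocyte nuclei and 336 of the 344 HKO ones had an *Spp1* UMI, with a median of 22 and 9 UMIs a nucleus. In macrophages the level was 72.3 CPM (57.8 to 89.2) and 59.5 CPM (49.2 to 71.4), so that cholangiocytes were 172-fold and 114-fold higher. Although they made up only 0.797% and 3.51% of nuclei, cholangiocytes held 39.3% and 54.9% of the libraries' *Spp1* UMIs, while macrophages held 2.05% and 1.73%. A further 34.6% and 11.2% lay in nuclei with markers of 2 types, which were left out of every type.

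The level of *Spp1* in macrophages was small against this source. The cholangiocyte check markers had only 1 UMI in Flox macrophages and 2 in HKO ones, too few to say how much of the *Spp1* there was leakage from cholangiocytes. The UMIs were bunched in Flox, where 25 of 540 macrophage nuclei held all 86 and 1 nucleus held 17 of them, and more even in HKO, where 90 of 1305 nuclei held 116. Macrophage nuclei without a UMI of a Kupffer cell gene had 182 and 109 CPM of *Spp1*, and those with one had 25.9 and 34.3 CPM. In HSCs *Spp1* was at 38.3 and 36.4 CPM, above 1/5 of the macrophage level, but 35 of the 52 Flox UMIs lay in 1 nucleus, without which the level was 12.6 CPM. The cholangiocyte check markers were again too few in HSCs, at 0 and 2 UMIs, to give the part of leakage.

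*Lpl* (ENSMUSG00000015568; chromosome 8, 68880491 to 68907448, plus strand), the lipase that frees fatty acids from lipoprotein triglycerides, had 1009 UMIs in Flox, or 848 CPM (796 to 902), and 2693 in HKO, or 1381 CPM (1330 to 1434), and after thinning was found in 36.3% (32.1 to 40.6) and 48.7% (45.7 to 51.8) of macrophage nuclei. HSCs, at 52.2 CPM (40.8 to 65.9) and 80.8 CPM (67.6 to 95.9), were 16.2-fold and 17.1-fold lower and so within the rule for restriction. Their level was nonetheless 6.45 and 4.6 times that of leakage from macrophages, and *Lpl* was found in 4.28% and 7.58% of thinned HSC nuclei (median depths 1787 and 1427 UMIs) against 0.748% and 1.5% of endothelial ones (1349 and 965 UMIs). Endothelial nuclei, at 6.65 and 22.7 CPM, lay under the level of leakage, at 0.673 and 0.814 of it. Cholangiocytes had 1 and 10 UMIs, the latter 1.40 times leakage. Macrophages held 68.0% and 72.9% of all *Lpl* UMIs and HSCs 4.78% and 3.55%.

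*Fabp5* (ENSMUSG00000027533; chromosome 3, 10012548 to 10016607, plus strand), a carrier of fatty acids within the cell, had its highest level in the endothelium. Endothelial nuclei had 61.0 CPM (45.9 to 79.4) and 68.8 CPM (55.0 to 85.1), and macrophages 31.1 CPM (21.9 to 42.8) and 30.8 CPM (23.5 to 39.6). The endothelium was thus 1.96-fold (1.27 to 3.06) and 2.24-fold (1.59 to 3.17) higher. Sinusoidal nuclei were at 67.3 CPM (50.4 to 88.0) and 75.9 CPM (59.8 to 95.0). Nuclei with *Vwf* were at 23.7 CPM (0.600 to 132) and 47.6 CPM (13 to 122), intervals that include the sinusoidal levels. The sharing with cholangiocytes was weakly based, on 1 UMI in Flox and 6 in HKO, and was lost at a limit of 1/3 of the macrophage level. Of the endothelium, *Fabp5* and *Cd9* were the shared genes by the rule, where 87.8% of all genes tested were shared. The related *Fabp4* was at 605 and 672 CPM in the endothelium and at 15.1 and 38.5 CPM in macrophages.

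**Figure D2:**
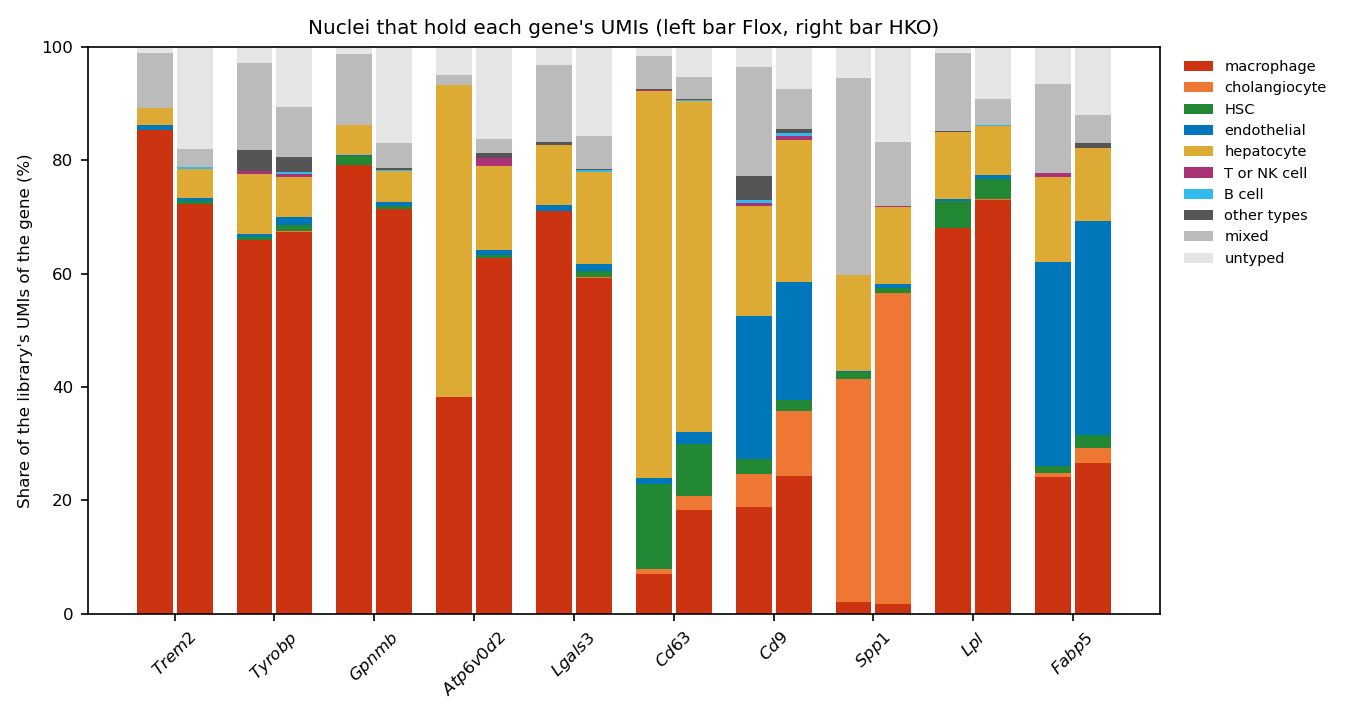
Share of each gene's UMIs (%) that lay in nuclei of each type, with Flox as the left bar and HKO as the right bar of each pair. Light greys mark nuclei with markers of 2 types and nuclei with too few marker UMIs for any type. Dark grey marks the types too small to compare. Macrophages hold most UMIs of *Trem2*, *Tyrobp*, *Gpnmb*, *Lgals3* and *Lpl* in both libraries, hepatocytes most of *Cd63*, and cholangiocytes 39.3% and 54.9% of *Spp1*.

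The promoters of genes from each kind of pattern are shown so that their sequences can be set beside the levels: *Trem2* and *Gpnmb*, restricted to macrophages, *Cd63*, shared with HSCs and cholangiocytes, and *Spp1*, the cholangiocyte gene. They come from RefSeq on build GRCm38.p6, which gave 7 promoters for 6 of the 10 genes (*Trem2*, *Gpnmb*, *Lgals3*, *Cd63*, *Cd9* and *Spp1*) and none for *Tyrobp*, *Atp6v0d2*, *Lpl* and *Fabp5*. Each runs 5′ to 3′ on the strand of the gene from 250 bases before the start of transcription to 50 bases after it. The *Cd63* promoter, from base 128909095, lies inside the gene span given above, from base 128900989, so its start is an internal one. The same holds for *Lgals3*, with a promoter from base 47373610 and a gene span from base 47367751. Capitals mark every match, on either strand, of 4 motifs: CACGTG (the E-box at the core of the CLEAR element, bound by MiT/TFE factors), CATGTG (the core of the M-box, bound by MITF), GAGGAA (the core of sites of PU.1, the myeloid master factor) and TGACTCA (AP-1).
Trem2, chr17:48346151-48346450, plus strand: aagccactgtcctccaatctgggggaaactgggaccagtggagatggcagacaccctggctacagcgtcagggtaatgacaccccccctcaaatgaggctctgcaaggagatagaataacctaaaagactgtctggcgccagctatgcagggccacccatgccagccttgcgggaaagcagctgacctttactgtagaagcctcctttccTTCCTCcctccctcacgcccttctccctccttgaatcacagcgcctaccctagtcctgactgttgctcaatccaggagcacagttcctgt
Gpnmb, chr6:49036268-49036567, plus strand: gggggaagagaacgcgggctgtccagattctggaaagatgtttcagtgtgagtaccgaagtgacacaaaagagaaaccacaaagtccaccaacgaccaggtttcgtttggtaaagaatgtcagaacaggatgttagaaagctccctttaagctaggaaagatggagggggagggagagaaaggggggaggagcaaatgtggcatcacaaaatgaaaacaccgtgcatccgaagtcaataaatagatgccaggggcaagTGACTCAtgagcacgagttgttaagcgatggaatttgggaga
Cd63, chr10:128909095-128909394, plus strand: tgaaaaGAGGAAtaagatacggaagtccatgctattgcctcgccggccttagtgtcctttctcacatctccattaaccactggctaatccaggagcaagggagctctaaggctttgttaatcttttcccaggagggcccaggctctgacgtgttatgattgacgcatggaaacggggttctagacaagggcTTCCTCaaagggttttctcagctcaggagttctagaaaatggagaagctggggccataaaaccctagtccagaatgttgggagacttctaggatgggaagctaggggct
Spp1, chr5:104434861-104435160, plus strand: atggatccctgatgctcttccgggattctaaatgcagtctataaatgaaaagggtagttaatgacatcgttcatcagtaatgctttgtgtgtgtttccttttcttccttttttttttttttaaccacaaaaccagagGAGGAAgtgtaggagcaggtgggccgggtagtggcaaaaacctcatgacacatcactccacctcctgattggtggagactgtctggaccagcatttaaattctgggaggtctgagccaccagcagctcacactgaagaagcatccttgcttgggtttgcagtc
GAGGAA or its complement TTCCTC lay 40 bases before the start of *Trem2*, 244 and 59 bases before that of *Cd63* and 113 bases before that of *Spp1*, and so in 3 of the 7 promoters, where 28.3% of all 32851 promoters hold it. TGACTCA lay 9 bases after the start of *Gpnmb* and in no other of the 7, against 5.20% of all promoters. CATGTG, read as CACATG, was found 38 bases before the start of *Cd9* and in 14.2% of all promoters, and CACGTG in none of the 7 and 7.15% of all. The second *Spp1* promoter and that of *Lgals3* held no match. 

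The levels of the 10 genes in macrophages were then compared between the libraries. *Gpnmb*, *Atp6v0d2* and *Cd63* were at least 2-fold higher in HKO macrophages, 3 of the 10, where 1.13% of all genes tested were. None of the 10 was 2-fold lower, where 2.53% of all genes were. The median log2 ratio of the 10 was 0.65, with 7 genes higher and 3 lower, and that of all 7700 genes was −0.09, with 3089 higher. No replicate stands behind these ratios, and the intervals do not cover differences between mice or preparations.

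*Atp6v0d2* had the highest ratio, 3.40 (2.17 to 5.55), followed by *Gpnmb*, 2.13 (1.86 to 2.45), *Cd63*, 2.06 (1.66 to 2.56), and *Trem2*, 1.94 (1.52 to 2.49). These 4 ratios overlapped in their intervals. *Trem2* was past 2-fold in 6 of 10 other settings: mean CPM over nuclei, TMM, DESeq2, typing by whole profiles, thinned nuclei, and without the nucleus with most of its UMIs. *Lpl*, at 1.63 (1.52 to 1.75), and *Cd9*, at 1.51 (1.14 to 2.00), were higher by less than 2-fold. For *Lgals3*, at 1.04 (0.834 to 1.29), *Fabp5*, at 0.990 (0.646 to 1.53), and *Spp1*, at 0.823 (0.618 to 1.10), the intervals included 1. The *Fabp5* value turned on 1 Flox nucleus with 13 of the 37 UMIs, without which the Flox level was 20.3 CPM. With the nucleus highest in *Fabp5* left out of each library the log2 ratio was 0.50, and it was 0.75 in thinned nuclei.

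*Tyrobp* went the other way, at 0.531 of its Flox level (0.465 to 0.607), so that the receptor *Trem2* and its adaptor differed in opposite directions. Other macrophage genes were also lower in HKO: the 6 macrophage check markers summed to 5054 CPM in Flox and 3551 CPM in HKO macrophages, and the 12 Kupffer cell genes were all lower in HKO, 5 of them by at least 2-fold (2.53% of all genes). *Marco*, a scavenger receptor, was at 303 and 22.6 CPM, *Cd163*, the haemoglobin receptor, at 319 and 28.7 CPM, *Timd4*, a phosphatidylserine receptor, at 264 and 44.1 CPM, *C6* at 644 and 301 CPM and *Id3* at 361 and 178 CPM (all but *C6* named after their values were seen). *Clec4f* and *Cd5l*, also Kupffer cell genes, were at 982 and 830 CPM and at 1579 and 1526 CPM. Of the 12, *Clec4f*, *Cd5l*, *Timd4* and *Vsig4* were markers that typed macrophages, so their levels were partly set by the typing. With TMM or DESeq2 scaling, every log2 ratio would be higher by 0.12 or 0.13, and the directions of *Gpnmb*, *Atp6v0d2*, *Cd63*, *Trem2*, *Lpl*, *Cd9*, *Spp1* and *Tyrobp* would stay, while that of *Fabp5* would turn to higher in HKO. The part of these differences, and of the shallower HKO library, in the ratios of the 10 genes was not tested.

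**Figure D3:**
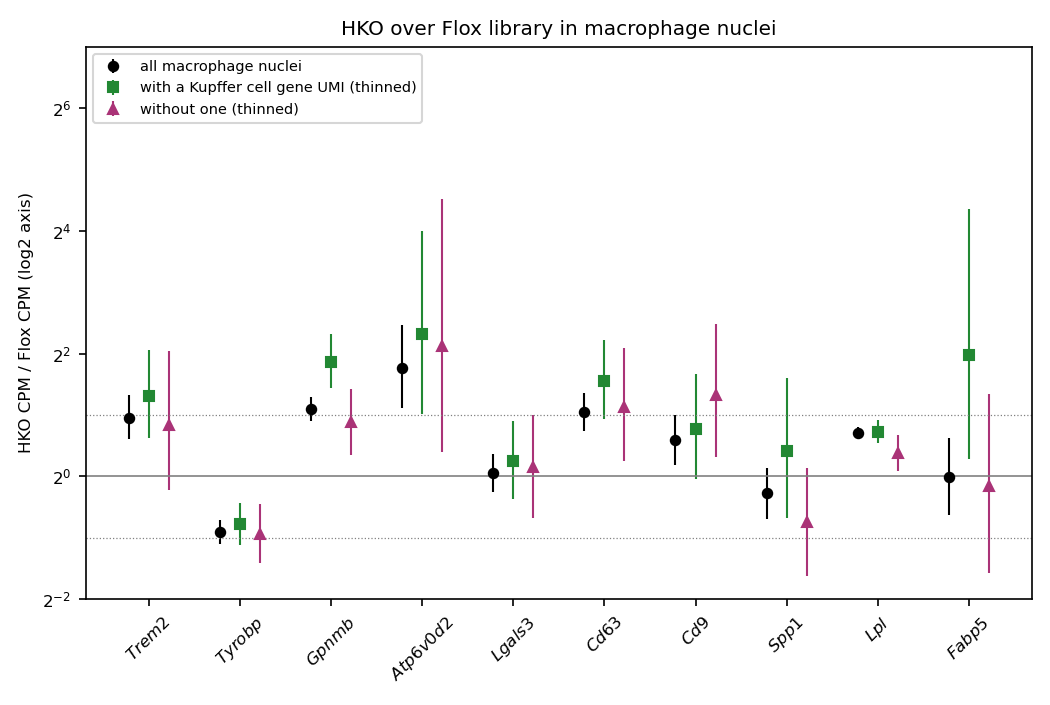
Ratio of HKO to Flox CPM in macrophage nuclei (log2 axis) with 95% conditional binomial intervals, over all nuclei (black) and, after thinning to 1000 UMIs, over nuclei with (green) and without (purple) a UMI of any of 7 Kupffer cell genes; dotted lines mark 2-fold. *Atp6v0d2*, *Gpnmb*, *Cd63*, *Trem2* and *Lpl* have point values above 1 and *Tyrobp* below 1 in all 3 sets, with an interval that includes 1 for *Trem2* in nuclei without a Kupffer cell gene (0.853 to 4.11).

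Macrophages were next divided by whether a nucleus, thinned to 1000 UMIs, had a UMI of *Clec4f*, *Vsig4*, *Timd4*, *Cd5l*, *Marco*, *Cd163* or *Folr2*, genes of resident Kupffer cells. Such nuclei were 386 of 518 in Flox (74.5%, 70.5 to 78.2) and 846 of 1067 in HKO (79.3%, 76.7 to 81.7). *Clec4f*, *Vsig4*, *Timd4* and *Cd5l* were also among the markers that typed macrophages, so these shares were partly set by the typing. Without them as markers, 472 Flox and 956 HKO nuclei were typed as macrophages, against 540 and 1305 with them. *Gpnmb* differed more between the libraries in the nuclei with a Kupffer cell gene, at 127 and 463 CPM and so 3.65-fold (2.71 to 5.02), than in those without, at 303 and 557 CPM and so 1.84-fold (1.28 to 2.69). In Flox *Gpnmb* was thus lower in the nuclei with Kupffer cell genes, at 0.419 of the level in the others (0.270 to 0.653), and in HKO it was 0.833 of that level (0.678 to 1.03). *Trem2* was at 54.4 and 135 CPM with, and at 75.8 and 136 CPM without, a Kupffer cell gene. *Tyrobp* was lower in HKO in either class, at 0.582 (0.459 to 0.740) and 0.523 (0.374 to 0.729) of its Flox level. *Spp1* was lower in nuclei with Kupffer cell genes in both libraries, by 7.02-fold and 3.17-fold. Since *Marco*, *Cd163* and *Timd4* were themselves far lower in HKO, the classes need not hold the same cells in both libraries.

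Within macrophages, *Trem2* and *Gpnmb* tended to be found in the same nuclei. After thinning, 61 of 518 Flox nuclei (11.8%, 9.13 to 14.9) and 335 of 1067 HKO nuclei (31.4%, 28.6 to 34.3) had a UMI of either, a ratio of 2.67 (2.02 to 3.56) between the libraries. *Trem2* was found in 7 of 40 Flox nuclei with a *Gpnmb* UMI (17.5%) and in 21 of 478 without (4.39%). In HKO these were 58 of 264 (22%) and 71 of 803 (8.84%). The ratio of the shares was 3.98 (1.43 to 9.73) and 2.48 (1.73 to 3.57), and without thinning, where deep nuclei have more of everything, 3.85 and 2.59. Of the 28 and 129 nuclei with *Trem2*, 25% and 45% also had a *Gpnmb* UMI. Over 20 other draws of the thinning the ratio ran from 0.884 to 4.95 in Flox, above 1 in 19, and from 1.82 to 2.92 in HKO.

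The remaining genes were compared between nuclei with and without a *Trem2* or *Gpnmb* UMI. *Fabp5* was at 115 against 8.75 CPM in Flox, a ratio of 13.1 (3.33 to 61.1) from 7 and 4 UMIs, and 89.6 against 10.9 CPM in HKO, a ratio of 8.19 (3.67 to 20.7). *Atp6v0d2* was 7.49-fold (1.40 to 40.2) and 8.33-fold (4.74 to 15.5) higher in those nuclei. Although *Fabp5* was not restricted to macrophages and its ratio between the libraries over all macrophages had an interval that included 1, within macrophages most of its UMIs lay in the nuclei with *Trem2* or *Gpnmb*. *Cd63* was 6.42-fold (3.23 to 12.7) and 2.04-fold (1.55 to 2.70) higher, *Lpl* 3.68-fold (3.01 to 4.49) and 1.78-fold (1.60 to 1.98), *Cd9* 2.76-fold (0.981 to 6.86) and 2.46-fold (1.64 to 3.71), and *Lgals3* 2.37-fold (1.13 to 4.62) and 2.22-fold (1.52 to 3.26). *Cd63* and *Lpl* had non-overlapping intervals in the libraries, with the smaller gap in HKO.

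*Spp1* differed in Flox but not detectably in HKO, and *Tyrobp* in neither. *Spp1* was 3.58-fold higher in Flox (1.58 to 7.65), from 11 and 23 UMIs, and 1.22-fold in HKO (0.658 to 2.20). The 11 UMIs lay in few nuclei: *Spp1* was found in 4 of the 28 Flox nuclei with *Trem2* and 3 of the 40 with *Gpnmb*. Before thinning, 1 Flox nucleus with UMIs of both genes held 17 of the 86 *Spp1* UMIs of macrophages. Its part in this ratio was not tested. *Tyrobp* was at 393 CPM with and 400 CPM without *Trem2* or *Gpnmb* in Flox (ratio 0.983, 0.614 to 1.51), and at 188 CPM with and 231 CPM without in HKO (ratio 0.815, 0.600 to 1.09). In HKO *Gpnmb* was found in 73.1% of the 67 nuclei with *Atp6v0d2* and in 21.5% of the others, and in Flox in 3 of 8 and in 7.25% of the others. *Fabp5* was found in 13 of the 67 HKO nuclei with *Atp6v0d2* and in 0 of the 8 Flox ones. *Gpnmb* was found in 75.9% of the 29 HKO nuclei with *Fabp5*, and in 6 of the 10 such nuclei in Flox.

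**Figure D4:**
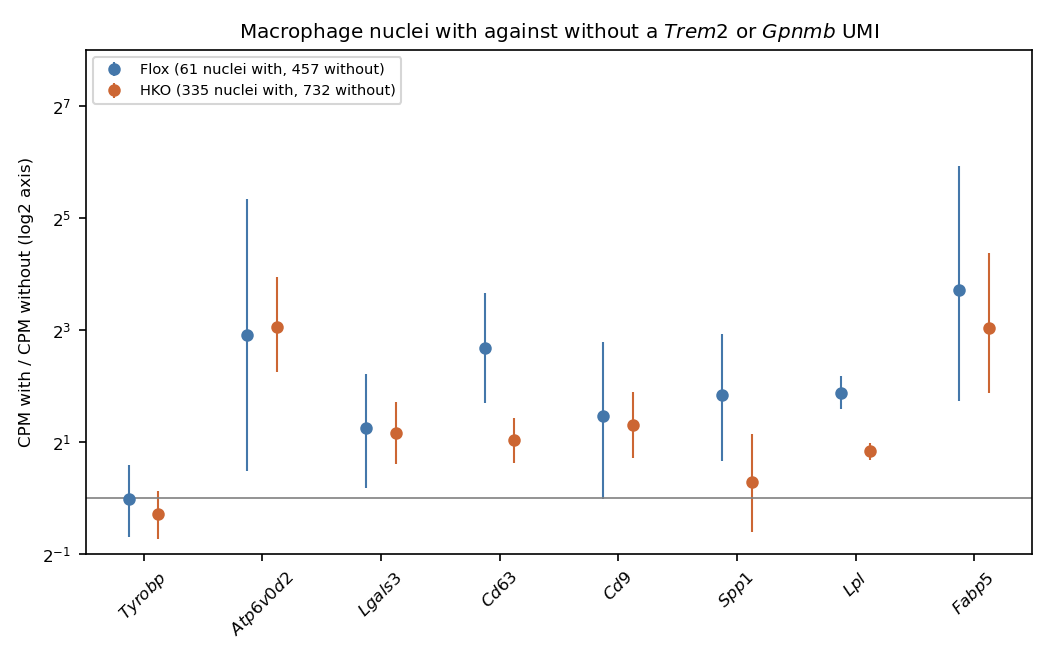
CPM in macrophage nuclei with a *Trem2* or *Gpnmb* UMI over that in nuclei without one (log2 axis), for the other 8 genes after thinning to 1000 UMIs, with 95% conditional binomial intervals, Flox in blue (61 and 457 nuclei) and HKO in orange (335 and 732 nuclei). *Fabp5* and *Atp6v0d2* stand highest in HKO, at 8.19 and 8.33, and *Tyrobp* lies at 0.983 and 0.815.

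The libraries were also compared within each kind of nucleus. In nuclei with *Trem2* or *Gpnmb*, *Gpnmb* was at 1459 and 1537 CPM (ratio 1.05, 0.840 to 1.33), *Trem2* at 508 and 430 CPM, 0.846 (0.571 to 1.29), and *Cd63* at 295 and 304 CPM, 1.03 (0.621 to 1.81). Because the nuclei were picked by these UMIs, the values of *Trem2* and *Gpnmb* there are a description only. In the nuclei without *Trem2* or *Gpnmb*, *Cd63* was 3.24-fold higher in HKO (2.02 to 5.45) and *Lpl* 1.62-fold (1.42 to 1.85). In the nuclei with *Trem2* or *Gpnmb*, by contrast, *Lpl* was lower in HKO, at 0.783 of its Flox level (0.655 to 0.942). *Spp1* was lower there too, at 0.315 (0.142 to 0.732), a ratio that rests on the same 11 Flox UMIs from few nuclei. *Atp6v0d2* was 2.78-fold higher there (1.03 to 10.5). At least 3 of the 10 genes were found in 47 Flox nuclei (9.07%, 6.74 to 11.9) and in 209 HKO nuclei (19.6%, 17.2 to 22.1), and none of the 10 in 33% and 24.5%.

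Among all other genes, those most like *Trem2* and *Gpnmb* were ranked by the smaller of the libraries' log2 ratios between the same nuclei. Of 5426 genes with at least 50 UMIs in the thinned macrophages, 28, or 0.516%, were at least 2-fold higher with *Trem2* or *Gpnmb* in both libraries. The 8 leading genes were *Il7r*, *Adam8*, *Stra6l*, *Fam20c*, *Mmp12*, *Fbxo32*, *Dpep2* and *Aph1c*. *Mmp12*, the macrophage elastase, was at 639 against 109 CPM in Flox and 1636 against 441 CPM in HKO, ratios of 5.84 (3.74 to 9.06) and 3.71 (3.22 to 4.27). *Il7r*, the receptor of interleukin-7, was at 161 against 17.8 CPM in HKO, with 7 UMIs against 1 in Flox. At the other end stood *Marco*, *Plac8*, *Clec4e*, *Hbb-bs*, *Gpr141*, *Slfn1*, *P2ry13* and *Gbp2b*, all lower in nuclei with *Trem2* or *Gpnmb* in both libraries, though from 0 to 2 UMIs each in such nuclei of Flox and 1 to 8 of HKO. *Plac8* and *Clec4e* are known from monocytes, *Marco* from Kupffer cells and *Hbb-bs* from red blood cells.

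Of the lipid handling genes around the 10, 3 of 15 tested were at least 2-fold higher in HKO macrophages (1.13% of all genes) and none lower (2.53%), with a median log2 ratio of 0.39. They were *Mmp12*, at 307 and 875 CPM (ratio 2.85, 2.54 to 3.20), *Fabp4*, at 15.1 and 38.5 CPM (2.54, 1.51 to 4.52), and *Pparg*, a nuclear receptor of fatty acids, at 14.3 and 32.3 CPM (2.26, 1.31 to 4.12), the last named after its values were seen. *Abca1*, the cholesterol exporter, was at 574 and 811 CPM. Of 5 other tetraspanins none was higher in HKO, where 3089 of all 7700 genes were. *Cd81* was 2.12-fold lower in HKO, at 269 and 127 CPM (2.53% of all genes were 2-fold lower). Of 7 monocyte genes 2 were 2-fold lower (2.53% of all genes), *Chil3*, at 31.9 and 10.3 CPM (named after its values were seen), and *Plac8*, at 87.4 and 38.5 CPM. Of 7 osteopontin receptor genes none was 2-fold higher (1.13% of all genes) or 2-fold lower (2.53%), with *Cd44* at 704 and 456 CPM.

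Outside macrophages the shared genes differed between the libraries in their own ways. *Spp1* in cholangiocytes was at 0.543 of its Flox level in HKO (0.512 to 0.576), while in hepatocytes it was at 15.3 and 33.3 CPM, or 2.18-fold higher (1.97 to 2.40), and in endothelial nuclei at 12.2 and 41.3 CPM. These low levels were under what leakage at the summed rate of the cholangiocyte check markers would give. They were at 0.101 and 0.155 of it in hepatocytes and at 0.320 and 0.368 of it in endothelial nuclei. That rate was itself 1.22% in Flox and 3.18% in HKO hepatocytes, mostly through 1 of the 4 markers, *Wfdc2*. *Wfdc2* was at 8.22% and 20.8% there, while the median over the markers was 0.0411% and 0.242%. In endothelial nuclei *Wfdc2* was the only marker found. Whether *Spp1* lay under leakage thus depended on the marker, and the part of leakage was not tested. *Cd63* in HSCs was at 0.663 of its Flox level (0.546 to 0.804), and in hepatocytes 1.86-fold higher (1.72 to 2.02). *Cd9* in cholangiocytes, at a ratio of 0.898 (0.561 to 1.49), and *Fabp5* in endothelial nuclei, at 1.13 (0.794 to 1.61), had intervals that included 1. *Lpl* in HSCs was 1.55-fold higher (1.15 to 2.09). In hepatocytes *Trem2*, *Gpnmb* and *Lgals3* were higher in HKO too, at 0.0651 and 0.731, 0.391 and 2.63, and 0.434 and 2.30 CPM. The check markers of macrophages were at a median of 0.182% of their macrophage level in Flox hepatocytes and 0.469% in HKO ones, and the part of free RNA in these low values was not tested.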

How the data were processed

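Single-nucleus libraries of 2 groups were analysed. The authors deposited raw UMI counts per gene and barcode, made with Cell Ranger 8.0.1 on GRCm38, per their methods without intronic reads. The 10 genes and all related lists were chosen with earlier results of these data known.

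Nuclei with at least 300 detected genes were kept, Scrublet-type doublets (scanpy 1.11.5; 701 in Flox, 920 in HKO, at 0.8% per 1000 barcodes) and nuclei with markers of 2 types were left out, and types were set from marker UMIs (for types other than hepatocytes at least 3 UMIs from 2 markers). Counts were summed per library and type and scaled to CPM. Genes with at least 50 UMIs in the macrophages of both libraries together entered comparisons over all genes. For co-detection, nuclei of at least 1000 UMIs were thinned to 1000, which left out 22 Flox and 238 HKO macrophage nuclei. With 1 library per group nothing was tested between groups, and a 2-fold ratio stands in for a call. Intervals (SciPy 1.17.1) cover counting error only. The ratios with their intervals, the thinning and the rules for restricted and shared genes were tested on simulated data. The simulated counts were Poisson, with no bunching of UMIs in single nuclei. Typing, removal of doublets, leakage and co-detection were not tested in this way. Named beside the 10 were, of each related list, at most 3 genes by macrophage CPM, and of all other genes the 8 highest and 8 lowest between nuclei with and without *Trem2* or *Gpnmb*. Alternatives were other filters, typing by whole profiles, doublets kept, mean CPM over nuclei, other folds, free RNA subtracted, factors of edgeR 4.0.16 (TMM) and DESeq2 1.42.0, and other thinning depths. Added after seeing the data were leaving out T or NK and B cells, shared barcodes or the nucleus with most UMIs of a gene, thinned library ratios, unthinned co-detection and other thinning draws. Python 3.11.15, pandas 2.3.3 and R 4.3.3 were used.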

Additional observations from a re-analysis of the deposited data

How the results depend on the processing

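Of 67 recomputed values that answer a comparison, 61 stayed close to the reported value and 6 moved. Most of the 67 were counts or shares of all genes, which have no direction to change. The ratios of the *Trem2* shares stayed above 1, but the 20 other thinning draws entered there only as their median. Single draws ran down to 0.884 in Flox. A fold of 10 left 2 restricted genes (*Gpnmb* and *Lpl*), and over all settings the count ran from 2 to 6. Thinning to 500 UMIs gave a ratio of the *Trem2* shares in HKO of 1.66 (0.958 to 2.76). With genes of at least 20 UMIs, 2.59% of all genes were 2-fold higher and 4.38% 2-fold lower in HKO macrophages, and with at least 1 UMI 13.4% and 13.7%. Of 100 recomputed log2 ratios of single genes between the libraries, 92 stayed and 8 moved. No gene past 2-fold changed sign, but the log2 ratio of *Fabp5* ran from −0.21 to 0.75, above 0 in 8 of 10 settings, and that of *Lgals3* from −0.03 to 0.20. *Atp6v0d2* and *Gpnmb* were past 2-fold in all 10 settings, *Cd63* in 9 and *Trem2* in 6. Without the nucleus with most UMIs of the gene, the log2 ratio was 1.43 for *Gpnmb* and 1.38 for *Cd63*. The causes were not tested. No paired analysis was possible because each group has 1 library. Depth limits the calls in T or NK and B cells, where 3 UMIs come to 24.1 to 64.6 CPM, and in the 69 Flox cholangiocytes, where they come to 22.6 CPM.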
